A study of Mus musculus with 8 samples.

Results

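Axon guidance ligands and receptors of 8 families were examined in SV-LECs, a mouse lymphatic endothelial cell line, with and without exposure to TGFβ1. The genes were taken by symbol from the table of gene counts and comprise the semaphorins and their plexin receptors, the ephrins and their Eph receptors, the Slits and their Robo receptors, and the netrins and their Unc5 receptors. The rule found 65 of the 55471 genes in the table, 34 encoding ligands and 31 encoding receptors. Co-receptors such as the neuropilins do not carry these symbols and are described separately.

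SV-LECs come from adventitial tissue of the mouse mesentery and were immortalized with SV40, so that all libraries derive from 1 line. RNA was sequenced from 4 libraries of untreated cells and from 4 libraries of cells treated with 10 ng/ml TGFβ1 for 72 h, from stranded libraries of poly(A) RNA. The study calls the samples of each group technical replicates, so the errors and p-values cover the spread between these libraries and not the spread between independent cultures. Age, strain and further alleles were not given in the sources used here.

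The deposited values were raw counts of reads per gene, and the total count of a library was between 18952504 and 26386941. Values are given as CPM, which here means counts brought to a common library size after TMM normalization. A count of 3 corresponded to between 0.113 and 0.162 CPM, a limit that covers counting error only. Within a group, pairs of libraries differed by a chi-square per degree of freedom of 2.37 to 7.84, which exceeds the sampling noise of 1 library counted again. Of 7 lymphatic endothelial marker genes, 5 were at or near 0. Prox1 and Reln, at most 2 counts, Lyve1, at most 3 counts, Ccl21a, 0 counts, and Mmrn1, at most 15 counts, lacked the signal of the labelled cell type, while Pdpn averaged 342 CPM in untreated and 313 CPM in treated cells and Flt4 averaged 21.6 and 29.3 CPM. The endothelial markers Pecam1 and Cdh5 reached at most 5 and 2 counts. Because the line was sequenced in bulk, a smaller share of cells with a transcript and less of the transcript per cell cannot be told apart.

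Guidance cues steer growing axons and also migrating cells and vessel sprouts. Class 3 semaphorins are secreted and mostly bind neuropilins, which pass the signal on through plexins, whereas most semaphorins of the other vertebrate classes are anchored in the membrane and bind plexins directly. Ephrin-A ligands are held by a lipid anchor and ephrin-B ligands span the membrane, so that both signal between touching cells through Eph receptor tyrosine kinases. Slits repel through Robo receptors, and netrins attract or repel depending on whether the receptor is DCC, neogenin or an Unc5 protein. In the vasculature, ephrin-B2 marks arteries and is needed in lymphatic valves, Sema3a acts in lymphatic valve formation through Nrp1 and Plxna1, and Unc5b and Plxnd1 are endothelial guidance receptors.

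After TGFβ1, more guidance genes rose than fell, and ligands and receptors of the same system did not always move together. Summed per kilobase of exons, netrins rose together with Unc5 receptors. The ephrin-B ligands and the Robos, almost entirely Robo3, also rose, while the EphB receptors and the Slits overlapped between the groups. In sum, the secreted semaphorins and the ephrin-A ligands fell, while the A-type plexins and the EphA receptors rose. These sums did not speak for every member. The EphA sum was mostly Epha2, and of 4 tested EphA receptors 1 was higher and 2 lower. The A-type plexin sum was mostly Plxna1, and 2 of 4 were higher. Of 7 class 3 semaphorins 2 were higher and 3 lower, and of 5 ephrin-A ligands 1 was higher and 3 lower. Slit1, Ntn1, Efnb3 and Robo3 rose most on the log2 scale, and Sema6d, Epha7, Epha4 and Sema3a fell most. Of the 65 genes, 49 had enough counts to be tested, and 23 of these were higher and 14 lower after TGFβ1 at an FDR under 0.05 (edgeR likelihood ratio test, Benjamini-Hochberg adjusted over all 13818 genes tested). The response of this line to TGFβ1 was broad, since 37.6% of all tested genes were higher and 38.0% lower by the same rule. The share of guidance genes that changed in either direction, 75.5%, was therefore near the 75.6% of all tested genes. With a log2 fold change of at least 1 in size, 13 guidance genes were higher and 5 lower, 36.7% of those tested, against 10.9% higher and 6.56% lower among all tested genes. The median log2 fold change was 0.10 over the 49 genes and -0.01 over all tested genes, and the median size of the log2 fold change was 0.59 and 0.39, respectively.

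All 4 treated libraries lay above all 4 untreated ones for 20 of the 49 genes and below them for 13, and the groups were apart in this way for 69.8% of all tested genes. With 4 libraries against 4, an exact two-sided permutation test of a single gene cannot give a p-value below 0.0286. Of 31 tested ligands, 14 were higher and 10 lower, and of 18 tested receptors, 9 were higher and 4 lower. Too scarce to test were 13 of the 31 receptors and 3 of the 34 ligands.

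**Figure D1:**
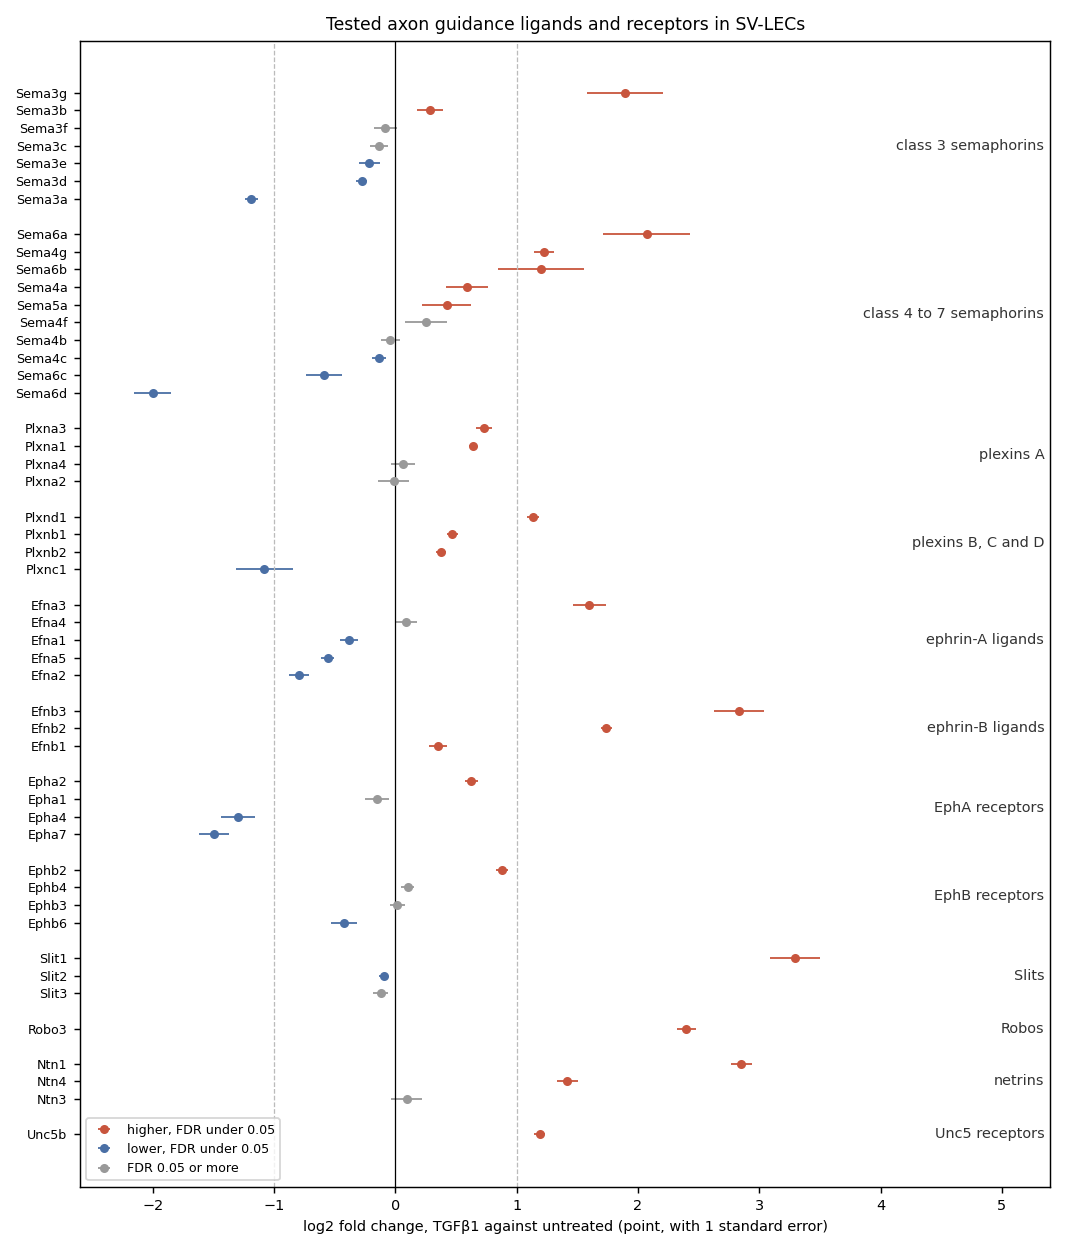
Log2 fold change of each tested axon guidance gene, TGFβ1-treated against untreated SV-LECs (x axis, points with 1 standard error from edgeR, n = 4 libraries per group), ordered by family, with dashed lines at -1 and 1. All 3 ephrin-B ligands lie to the right of 0, from 0.35 for Efnb1 to 2.83 for Efnb3, whereas the class 3 semaphorins run from -1.19 for Sema3a to 1.89 for Sema3g.

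Promoter sequences of the guidance genes were inspected for the short motifs that SMAD proteins, the transcription factors downstream of the TGFβ receptors, are known to bind. RefSeq promoter windows on GRCm38.p6 held 300 bases each, from 250 before to 50 after a transcript start. They were matched by Entrez gene identifier, and those on the chromosome of Sema6a were left out. This gave 70 windows for 56 of the 65 genes. The shares over all windows were taken without leaving out a chromosome. Both strands were searched for CAGACA, whose reverse complement is TGTCTG, and for the palindrome GGCGCC. The first was in 18 of the 70 windows (25.7%) and in 21.0% of all 32851 windows, and the second in 16 of the 70 (22.9%) and in 11.9% of all windows. Among the 18 genes with a log2 fold change of at least 1 in size, 14 had a searched window. Slit1, Ntn1, Efnb3 and Sema6a had none, and Sema6a could have none because windows on its chromosome were left out. Of the 18 windows of the 14 genes, 4 held CAGACA and 3 held GGCGCC. The 6 windows with a match are printed 5′ to 3′ on the strand of the gene, with each match in capitals, to show where the motifs lie. They belong to 5 genes that rose and 1 that fell, while of all 18 genes 13 rose and 5 fell. A link between the motifs and the direction of change was not tested. A match is a description of the letters and not evidence of binding.
Efna3, chr3:89321719-89322018, minus strand: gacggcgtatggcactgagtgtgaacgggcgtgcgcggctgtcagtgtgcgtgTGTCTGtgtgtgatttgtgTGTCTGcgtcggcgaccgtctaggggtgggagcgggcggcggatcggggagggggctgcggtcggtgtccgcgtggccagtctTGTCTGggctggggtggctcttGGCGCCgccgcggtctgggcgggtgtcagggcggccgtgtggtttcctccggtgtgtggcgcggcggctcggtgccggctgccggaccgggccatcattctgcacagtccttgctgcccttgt
Efnb2, chr8:8661193-8661492, minus strand: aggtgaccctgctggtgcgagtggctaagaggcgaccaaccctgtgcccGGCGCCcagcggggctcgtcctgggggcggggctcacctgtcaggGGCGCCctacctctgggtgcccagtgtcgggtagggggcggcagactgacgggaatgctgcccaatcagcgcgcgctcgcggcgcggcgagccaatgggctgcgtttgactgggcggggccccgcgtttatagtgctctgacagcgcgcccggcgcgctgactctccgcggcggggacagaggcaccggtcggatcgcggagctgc
Ntn4, chr10:93640799-93641098, plus strand: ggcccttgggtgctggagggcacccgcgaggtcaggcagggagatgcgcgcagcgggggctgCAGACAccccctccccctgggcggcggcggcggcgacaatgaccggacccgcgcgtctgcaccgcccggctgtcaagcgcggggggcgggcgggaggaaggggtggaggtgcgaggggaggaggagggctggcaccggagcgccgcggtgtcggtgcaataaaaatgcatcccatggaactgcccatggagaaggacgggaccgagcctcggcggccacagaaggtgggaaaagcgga
Sema3g, chr14:31217623-31217922, plus strand: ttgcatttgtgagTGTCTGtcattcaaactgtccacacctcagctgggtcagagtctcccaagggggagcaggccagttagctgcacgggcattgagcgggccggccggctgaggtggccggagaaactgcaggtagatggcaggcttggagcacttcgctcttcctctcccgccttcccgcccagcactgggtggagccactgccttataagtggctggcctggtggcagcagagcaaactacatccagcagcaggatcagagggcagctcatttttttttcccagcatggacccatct
Sema6b, chr17:56140294-56140593, minus strand: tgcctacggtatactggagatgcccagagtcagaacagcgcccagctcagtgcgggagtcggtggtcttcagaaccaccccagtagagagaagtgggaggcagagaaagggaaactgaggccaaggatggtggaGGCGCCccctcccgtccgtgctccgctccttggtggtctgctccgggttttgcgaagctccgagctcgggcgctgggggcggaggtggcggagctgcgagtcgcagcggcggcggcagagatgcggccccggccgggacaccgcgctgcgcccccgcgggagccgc
Sema6d, chr2:124653331-124653630, plus strand: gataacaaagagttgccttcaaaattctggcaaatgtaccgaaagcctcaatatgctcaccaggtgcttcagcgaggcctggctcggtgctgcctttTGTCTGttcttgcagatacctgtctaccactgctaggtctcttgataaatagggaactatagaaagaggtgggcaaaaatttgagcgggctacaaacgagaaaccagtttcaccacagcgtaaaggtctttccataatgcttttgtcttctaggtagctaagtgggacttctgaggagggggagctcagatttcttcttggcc
The Efna3 window held 4 matches, 3 of CAGACA and 1 of GGCGCC, and was the only printed window with both motifs. The Efnb2 window held GGCGCC at 2 places. Efna3, Sema6b and Sema6d each have a further window at another start, and none of these held either motif.

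The secreted class 3 semaphorins were the most abundant group of guidance ligands in untreated cells, and their sum fell, with the largest fall in Sema3a. Their summed level per length was 125 ± 10.6 CPM per kilobase of exons (SD, n = 4) in untreated and 98.0 ± 1.58 in treated libraries, and the groups did not overlap. On the longest coding transcripts the sums were 202 and 147. Of the 7 genes, all tested, 2 were higher, 3 lower and 2 did not pass the FDR. Per kilobase of exons, Sema3a went from 32.4 to 14.2 CPM, and Sema3d, with the next largest fall, from 27.6 to 22.7 CPM. The lower sum is therefore not a fall shared by all members.

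Sema3a (ENSMUSG00000028883, chr5:13125414-13602565, plus strand), a repellent cue that signals through Nrp1 and A-type plexins, stood at 470, 480, 433 and 414 CPM in the untreated libraries and at 194, 199, 204 and 192 CPM after TGFβ1. Every treated library was below every untreated one, and the log2 fold change was -1.19 ± 0.0516 (SE; edgeR, Benjamini-Hochberg FDR = 5.76e-113). Its share of the summed class 3 level per length fell from 25.8% ± 0.501 to 14.5% ± 0.345 (SD, n = 4 libraries each). Sema3c (ENSMUSG00000028780, chr5:17574281-17730268, plus strand), known from outflow tract development, had the highest level per length of the semaphorins when all exons were counted. Its libraries held 302, 324, 275 and 248 CPM untreated and 267, 270, 266 and 243 CPM after TGFβ1. The groups overlapped, and the log2 fold change of -0.14 ± 0.0708 did not pass the threshold (edgeR, FDR = 0.0719). The order of these genes rests on the length used. With all exons Sema3c stood at 40.2 and Sema3a at 32.4 CPM per kilobase in untreated cells, whereas with the longest coding transcript Sema3a stood at 75.7 and Sema3c at 52.3. After TGFβ1, Sema3c was ahead of Sema3a by both lengths.

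Sema3g (ENSMUSG00000021904, chr14:31217860-31230352, plus strand), a class 3 member known from endothelium, was scarce and rose. Its untreated libraries held 0.241, 0.300, 0.393 and 0.355 CPM, from 5 to 9 reads, and its treated libraries 1.24, 1.17, 1.48 and 1.01 CPM, from 23 to 30 reads. The groups did not overlap, and the log2 fold change was 1.89 ± 0.311 (edgeR, FDR = 4.83e-11). Sema3d averaged 237 CPM untreated and 195 CPM treated (log2 fold change -0.28), with no overlap. Sema3e, the ligand of Plxnd1, averaged 67.4 and 58.1 CPM (log2 fold change -0.22) and Sema3b 17.0 and 20.7 CPM (log2 fold change 0.28), and for both the groups overlapped although the FDR passed. The Sema3b call was lost with total counts as the scale (FDR = 0.0596 by edgeR) and without untreated library 3, untreated library 4 or treated library 1, and the Sema3e call without untreated library 2 (FDR = 0.0997 by edgeR). Sema3f averaged 74.5 and 70.2 CPM, with a log2 fold change of -0.08 that did not pass.

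The semaphorins of classes 4 to 7 overlapped between the groups in sum, while single genes changed by more than 2-fold in both directions. Their summed level per length was 14.9 ± 0.234 and 15.6 ± 0.436 CPM per kilobase (SD, n = 4), with overlapping groups. Of 12 genes, 10 were tested, of which 5 were higher, 3 lower and 2 did not pass.

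Sema6a, Sema6b and Sema6d are transmembrane ligands of A-type plexins, and they moved apart. Sema6a (ENSMUSG00000019647, minus strand) held 0.241, 0.300, 0.175 and 0.203 CPM in untreated libraries, from 4 to 8 reads, and 1.03, 1.12, 0.787 and 1.05 CPM in treated ones, from 16 to 27 reads. The treated libraries all lay higher, with a log2 fold change of 2.07 ± 0.357 (edgeR, FDR = 1.40e-10). Sema6d (ENSMUSG00000027200, chr2:124089969-124667770, plus strand) went from 7.95, 7.70, 6.42 and 6.90 CPM to 1.62, 2.04, 1.48 and 2.02 CPM. It was 4.00-fold lower by the fit, the largest fall among the tested guidance genes, and the groups were far apart (log2 fold change -2.00 ± 0.152, edgeR FDR = 1.76e-43). Sema6b (ENSMUSG00000001227, chr17:56123085-56140343, minus strand) held 0.193, 0.338, 0.480 and 0.355 CPM untreated and 0.811, 0.389, 1.23 and 0.776 CPM treated, from 4 to 25 reads. Its log2 fold change was 1.20 ± 0.354 (edgeR, FDR = 0.000698), but treated library 2 lay below untreated library 3, so that the groups overlapped.

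Sema4g (ENSMUSG00000025207, chr19:44989101-45003397, plus strand), a transmembrane class 4 semaphorin, stood at 12.1, 11.2, 11.0 and 12.4 CPM untreated and at 28.5, 29.7, 26.6 and 24.6 CPM treated. All treated libraries were higher, and the log2 fold change was 1.23 ± 0.0810 (edgeR, FDR = 1.92e-51). Sema4a was also higher, at 1.47 and 2.19 CPM, and Sema6c lower, at 6.70 and 4.46 CPM, with log2 fold changes of 0.59 and -0.59. Sema4c, at 34.4 and 31.3 CPM, had a log2 fold change of -0.13, a call lost by DESeq2 (FDR = 0.0550) and without untreated library 3, treated library 1 or treated library 2 in edgeR, and 7.27% of its exon bases overlap D430040D24Rik on the opposite strand, which had 7 to 17 counts in the 8 libraries. Sema5a, at 1.50 and 2.04 CPM, passed with overlapping groups (log2 fold change 0.42, edgeR FDR = 0.0435) and missed the threshold by the quasi-likelihood test (FDR = 0.0652) and without untreated library 1, untreated library 4, treated library 1 or treated library 4. Sema4b and Sema4f did not pass, with log2 fold changes of -0.04 and 0.25. Sema7a, a lipid-anchored ligand of Plxnc1, was not tested, with 0 to 3 reads in untreated and 7 to 15 in treated libraries, and Sema5b had at most 2 reads.

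The plexins, the receptors of the semaphorins, were mostly higher after TGFβ1. Of 9 genes, 8 were tested, and 5 were higher, 1 lower and 2 did not pass. The summed level per length of the 4 A-type plexins went from 43.8 ± 0.964 to 67.9 ± 0.453 CPM per kilobase (SD, n = 4), and that of the B, C and D types from 89.4 ± 3.38 to 120 ± 2.05, with no overlap in either sum.

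Plxnb2 (ENSMUSG00000036606, chr15:89155549-89180788, minus strand), a receptor of class 4 semaphorins, had the highest level of all 65 genes per kilobase of exons in untreated cells, 76.0 CPM per kilobase. It held 594, 606, 597 and 549 CPM untreated and 767, 738, 779 and 764 CPM treated. The treated libraries were all higher, by a log2 fold change of 0.38 ± 0.0425 (edgeR, FDR = 2.76e-18). Plxnd1 (ENSMUSG00000030123, chr6:115954811-115995005, minus strand), the receptor of Sema3e in vessels, rose from 31.2, 32.1, 30.8 and 30.2 CPM to 70.5, 69.5, 65.9 and 67.8 CPM. The groups did not overlap, and the log2 fold change was 1.14 ± 0.0508 (edgeR, FDR = 1.04e-110). Plxnc1 (ENSMUSG00000074785, chr10:94790866-94944835, minus strand), the receptor of Sema7a, fell from 1.11, 1.54, 1.70 and 1.72 CPM to 0.649, 0.584, 0.836 and 0.776 CPM. All treated libraries were lower, on 12 to 20 reads each, with a log2 fold change of -1.08 ± 0.234 (edgeR, FDR = 3.18e-06).

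Plxna1, which pairs with neuropilins for class 3 semaphorins, averaged 355 and 554 CPM, a log2 fold change of 0.64. Its exons overlap Gm26811 on the opposite strand over 10.7% of their bases, and Gm26811 had 1 to 6 counts per library. Plxna3 averaged 26.2 and 43.3 CPM and Plxnb1 85.0 and 118 CPM, with log2 fold changes of 0.73 and 0.47 and no overlap of the groups. Plxna2 and Plxna4 did not pass, at 5.36 and 5.30 CPM and at 12.7 and 13.3 CPM. Plxnb3 was not tested and had 9 to 17 reads in untreated and 0 to 5 in treated libraries. The ratio of the summed A-type plexin level to the summed class 3 semaphorin level, both per length, was 0.351 ± 0.0280 in untreated and 0.693 ± 0.0137 in treated libraries (SD, n = 4), with no overlap. On the longest coding transcripts this ratio was 0.221 and 0.468. Plxna1 held 39.3 of the 43.8 CPM per kilobase of exons summed over the A-type plexins in untreated cells, and 61.1 of 67.9 in treated cells.

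**Figure D2:**
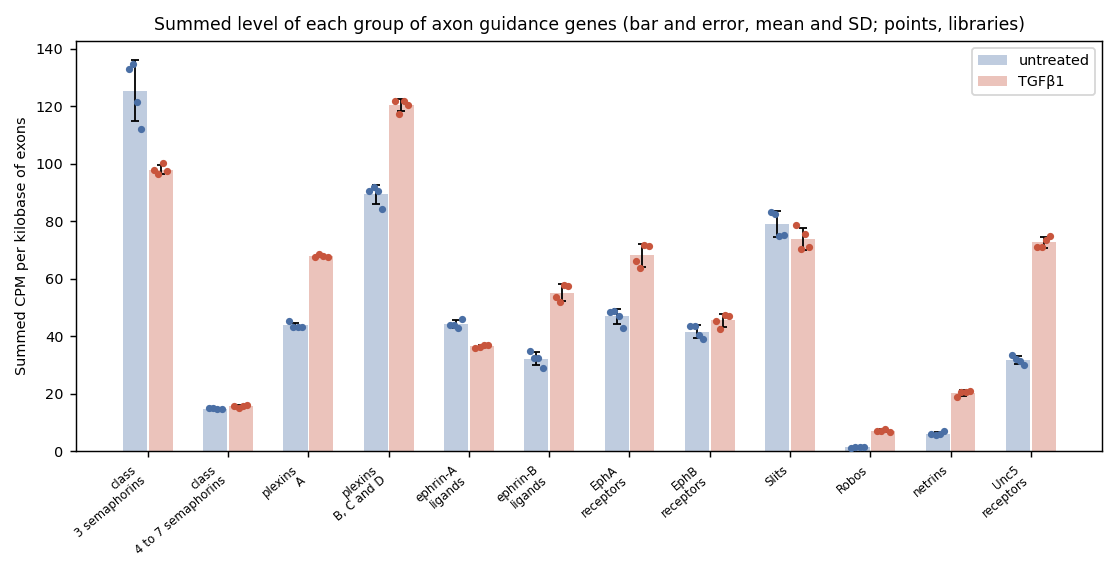
Summed level per length (y axis, CPM per kilobase of exons) of each group of axon guidance genes in untreated and TGFβ1-treated SV-LECs, with bars for the mean, error bars for 1 SD and points for the 4 libraries of each group. The class 3 semaphorins went from 125 to 98.0 and the ephrin-A ligands from 44.2 to 36.5, whereas the A-type plexins went from 43.8 to 67.9 and the Unc5 receptors from 31.9 to 72.7.

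The ephrins, which were all abundant enough to test, changed in opposite directions by class. All 3 ephrin-B ligands were higher, while 3 of the 5 ephrin-A ligands were lower, 1 was higher and 1 did not pass. Summed per length, ephrin-A ligands stood at 44.2 ± 1.35 CPM per kilobase untreated and 36.5 ± 0.418 treated, and ephrin-B ligands at 32.3 ± 2.39 and 55.2 ± 2.84 (SD, n = 4). The ratio of ephrin-B to ephrin-A went from 0.731 ± 0.0697 to 1.51 ± 0.0645, and the libraries of the groups did not overlap, so that ephrin-A was ahead in untreated and ephrin-B in treated cells. An ephrin-B to ephrin-A ratio computed on the longest coding transcripts was 0.801 and 1.75.

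Efnb2 (ENSMUSG00000001300, chr8:8617434-8661242, minus strand), which encodes ephrin-B2, held 40.1, 44.4, 44.1 and 41.9 CPM in untreated and 142, 144, 138 and 147 CPM in treated libraries. It was 3.34-fold higher by the fit (log2 fold change 1.74 ± 0.0489, edgeR FDR = 1.71e-273), and its promoter window is one of the 6 printed above. Its share of the summed ephrin-B level per length was 19.4% ± 1.82 untreated and 37.7% ± 2.30 treated (SD, n = 4). Efnb3 (ENSMUSG00000003934, chr11:69554092-69560205, minus strand), encoding ephrin-B3, rose from 0.578, 0.601, 0.568 and 0.811 CPM to 4.60, 4.62, 4.58 and 4.42 CPM. No treated library reached down to the untreated ones, and the log2 fold change was 2.83 ± 0.208 (edgeR, FDR = 8.95e-61). Efnb1 (ENSMUSG00000031217, chrX:99136130-99148991, plus strand) had the highest level per length of the ephrins in both groups, 25.9 and 33.0 CPM per kilobase. It held 99.5, 89.4, 89.7 and 78.3 CPM untreated and 109, 102, 125 and 120 CPM treated. These groups lay close but did not overlap, and the log2 fold change was 0.35 ± 0.0752 (edgeR, FDR = 5.23e-06).

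Efna3 (ENSMUSG00000028039, chr3:89313899-89322965, minus strand) was the ephrin-A ligand that rose, from 4.38, 3.34, 3.41 and 5.53 CPM to 12.3, 13.3, 12.9 and 11.4 CPM. The groups were apart, with a log2 fold change of 1.60 ± 0.137 (edgeR, FDR = 3.72e-31). Its exons overlap Gm15998 on the opposite strand over 14.1% of their bases, and Gm15998 had 1 to 14 counts per library. Efna1, Efna2 and Efna5 fell, by 0.38, 0.79 and 0.56 on the log2 scale, with means of 20.2 and 15.5, 18.3 and 10.5, and 66.2 and 45.0 CPM. For each of these 3 genes, every treated library was below every untreated one. Efna4 averaged 10.3 and 10.9 CPM and did not pass, and 10.5% of its exon bases overlap 4731419I09Rik on the opposite strand, which had 0 to 6 counts. The level of Efnb2 relative to that of Efna5, per length, went from 0.379 ± 0.0222 to 1.86 ± 0.0813 (SD, n = 4).

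Of the 14 Eph receptors, 8 were tested, of which 2 were higher, 3 lower and 3 did not pass. Epha3, Epha5, Epha6 and Ephb1 had 0 reads in every library, Epha8 had at most 1 and Epha10 at most 9. The summed level per length of the EphA receptors went from 46.9 ± 2.67 to 68.2 ± 3.95 CPM per kilobase (SD, n = 4), with no overlap, and that of the EphB receptors from 41.7 ± 2.25 to 45.6 ± 2.15, with overlap.

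Epha2 (ENSMUSG00000006445, chr4:141301240-141329384, plus strand), a receptor for ephrin-A ligands found in many adherent cells, made up 88.5% ± 0.629 of the EphA level per length in untreated and 94.0% ± 0.330 in treated libraries. It held 203, 201, 195 and 178 CPM untreated and 290, 281, 315 and 314 CPM treated. The groups did not overlap, with a log2 fold change of 0.63 ± 0.0543 (edgeR, FDR = 7.13e-30). Epha7 and Epha4, both scarcer, fell. Epha7 (ENSMUSG00000028289, chr4:28813131-28967499, plus strand) fell from 8.14, 7.74, 7.47 and 7.91 CPM to 2.87, 2.97, 2.71 and 2.56 CPM, a log2 fold change of -1.50 ± 0.122 (edgeR, FDR = 4.62e-37). Epha4 (ENSMUSG00000026235, chr1:77367185-77515088, minus strand), which binds ephrins of both classes, fell from 5.49, 5.60, 6.16 and 6.69 CPM to 2.11, 2.58, 2.85 and 2.17 CPM, a log2 fold change of -1.30 ± 0.140 (edgeR, FDR = 6.15e-21). In both genes the groups were clearly apart.

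Ephb2 averaged 32.5 CPM untreated and 59.8 CPM treated, with no overlap and a log2 fold change of 0.88, and Ephb6, a receptor without kinase activity, averaged 8.07 and 6.05 CPM, with no overlap and a log2 fold change of -0.42. Ephb4, the main receptor of ephrin-B2 in veins, averaged 136 and 146 CPM and did not pass (log2 fold change 0.10, edgeR FDR = 0.0763). Ephb3 averaged 51.2 and 51.8 CPM and Epha1 15.1 and 13.6 CPM, and neither passed. The exons of Epha1 overlap those of Zyx on the opposite strand over 6.01% of their bases, and Zyx had 20592 to 37685 counts per library.

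**Figure D3:**
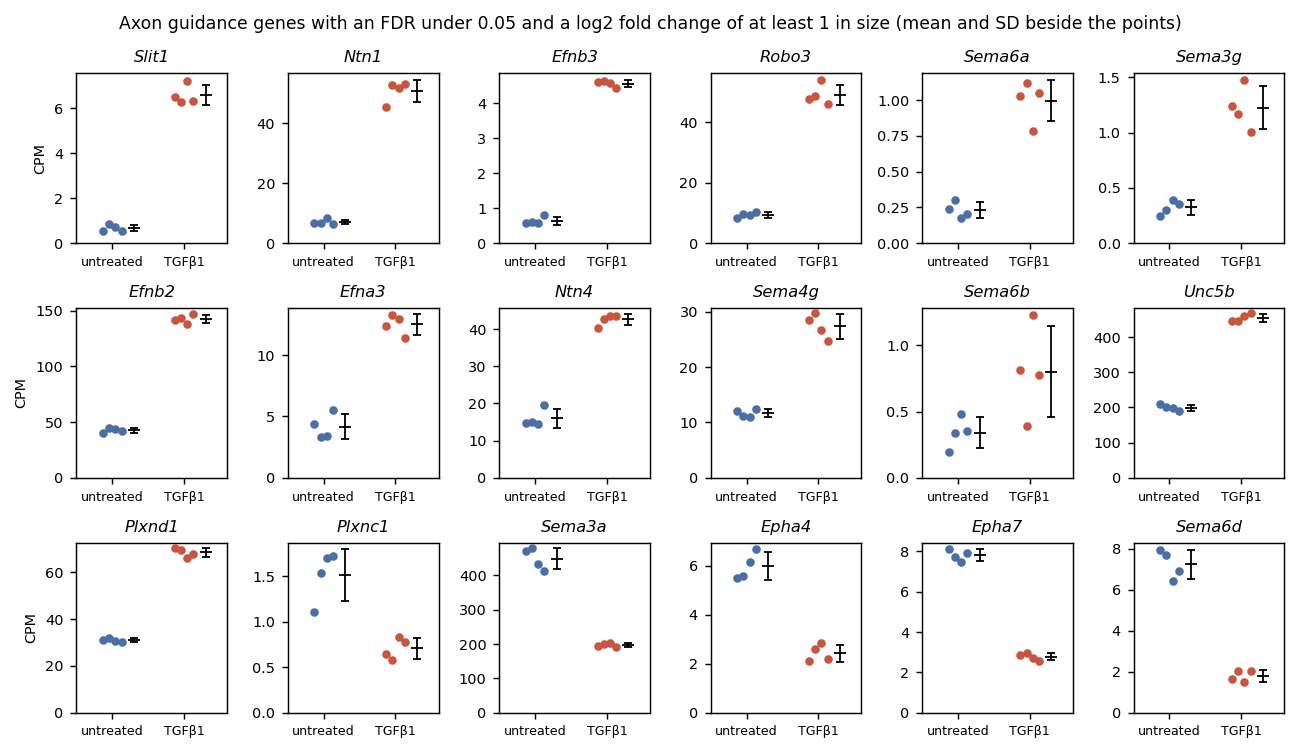
CPM of each library (y axis, linear and starting at 0) for the 18 axon guidance genes with an FDR under 0.05 and a log2 fold change of at least 1 in size, with untreated libraries in blue, TGFβ1-treated libraries in red and the mean with 1 SD beside them (n = 4 per group). The groups are apart in every panel except that of Sema6b, where treated library 2 at 0.389 CPM lies below untreated library 3 at 0.480 CPM.

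Among the Slits and Robos, the scarcest Slit and the only tested Robo rose, while the abundant Slits had log2 fold changes of -0.12 and -0.10. Of 7 genes, 4 were tested, of which 2 were higher, 1 lower and 1 did not pass. The summed level of the Slits per length was 78.9 ± 4.51 CPM per kilobase untreated and 73.9 ± 3.97 treated (SD, n = 4), with overlap, and 120 and 113 on the longest coding transcripts, also with overlap.

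Slit1 (ENSMUSG00000025020, chr19:41600257-41743665, minus strand), a secreted repellent best known from the nervous system, stood at 0.530, 0.826, 0.699 and 0.558 CPM untreated and at 6.49, 6.28, 7.23 and 6.33 CPM treated. It was 9.80-fold higher by the fit, the largest rise among the tested guidance genes (log2 fold change 3.29 ± 0.206, edgeR FDR = 7.74e-86). Even so, its share of the summed Slit level per length was 0.140% ± 0.0285 untreated and 1.51% ± 0.0890 treated. Slit3 (ENSMUSG00000056427, chr11:35121224-35708507, plus strand), a Slit known to act on vessels, had the highest level per length of the family, at 376, 374, 328 and 332 CPM untreated and 353, 302, 337 and 304 CPM treated. The groups overlapped, and the log2 fold change of -0.12 ± 0.0633 did not pass (edgeR, FDR = 0.0680). Slit2, at 527 and 493 CPM, was slightly lower in all treated libraries, with a log2 fold change of -0.10 (edgeR, FDR = 0.0117), a call lost without treated library 3 (FDR = 0.0505).

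Robo3 (ENSMUSG00000032128, chr9:37415669-37433246, minus strand), a divergent Robo known from commissural axons, was the only Robo tested. It rose from 8.24, 9.46, 9.21 and 10.3 CPM to 47.6, 48.7, 54.0 and 46.2 CPM. The groups were far apart, and the log2 fold change was 2.40 ± 0.0791 (edgeR, FDR = 1.41e-209). The other Robos were at the edge of detection. Robo1 had 0 reads in all untreated libraries, which allows up to 3 reads in each, and 2 to 6 reads in the treated ones, Robo2 had 1 to 8 reads over all libraries, and Robo4, known from endothelium, had at most 3. The summed Robo level per length, 1.37 ± 0.122 and 7.22 ± 0.496 CPM per kilobase (SD, n = 4), thus consisted almost entirely of Robo3.

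Netrins and their Unc5 receptors held no gene that was lower by the test. Of 8 genes, 4 were tested, of which 3 were higher and 1 did not pass. Summed per length, the netrins went from 6.12 ± 0.588 to 20.2 ± 0.990 CPM per kilobase and the Unc5 receptors from 31.9 ± 1.44 to 72.7 ± 1.85 (SD, n = 4), with no overlap in either.

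Ntn1 (ENSMUSG00000020902, chr11:68209364-68400823, minus strand), encoding netrin-1, the founding member of the family, rose from 6.70, 6.61, 8.25 and 6.49 CPM to 45.3, 52.8, 51.6 and 52.9 CPM. It was 7.22-fold higher by the fit (log2 fold change 2.85 ± 0.0867, edgeR FDR = 4.08e-252), with the groups far apart. Ntn4 (ENSMUSG00000020019, chr10:93640681-93747207, plus strand), a netrin of basement membranes, rose from 14.8, 15.0, 14.5 and 19.7 CPM to 40.4, 42.8, 43.5 and 43.6 CPM, a log2 fold change of 1.42 ± 0.0835 (edgeR, FDR = 2.11e-63). For both netrins the treated libraries were all higher. Ntn1 made up 18.4% ± 3.14 of the netrin level per length in untreated and 39.9% ± 1.01 in treated libraries (SD, n = 4). Ntn3 averaged 3.74 and 3.96 CPM and did not pass. It shares 1.74% of its exon bases with Tbc1d24 on the same strand, which had 823 to 1298 counts per library. Ntn5 had 0 reads.

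Unc5b (ENSMUSG00000020099, chr10:60762593-60831581, minus strand), the Unc5 receptor of endothelium, had the highest level per length of the netrin and Unc5 genes. It stood at 211, 201, 198 and 189 CPM untreated and at 445, 445, 460 and 468 CPM treated. All treated libraries were higher, with a log2 fold change of 1.19 ± 0.0432 (edgeR, FDR = 1.95e-161). Unc5c had 2 to 7 reads in untreated and 8 to 20 in treated libraries, Unc5a had at most 2 reads and Unc5d had 0, and none of these was tested. The summed Unc5 level was thus almost entirely that of Unc5b, at 31.9 CPM per kilobase untreated and 72.7 treated.

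**Figure D4:**
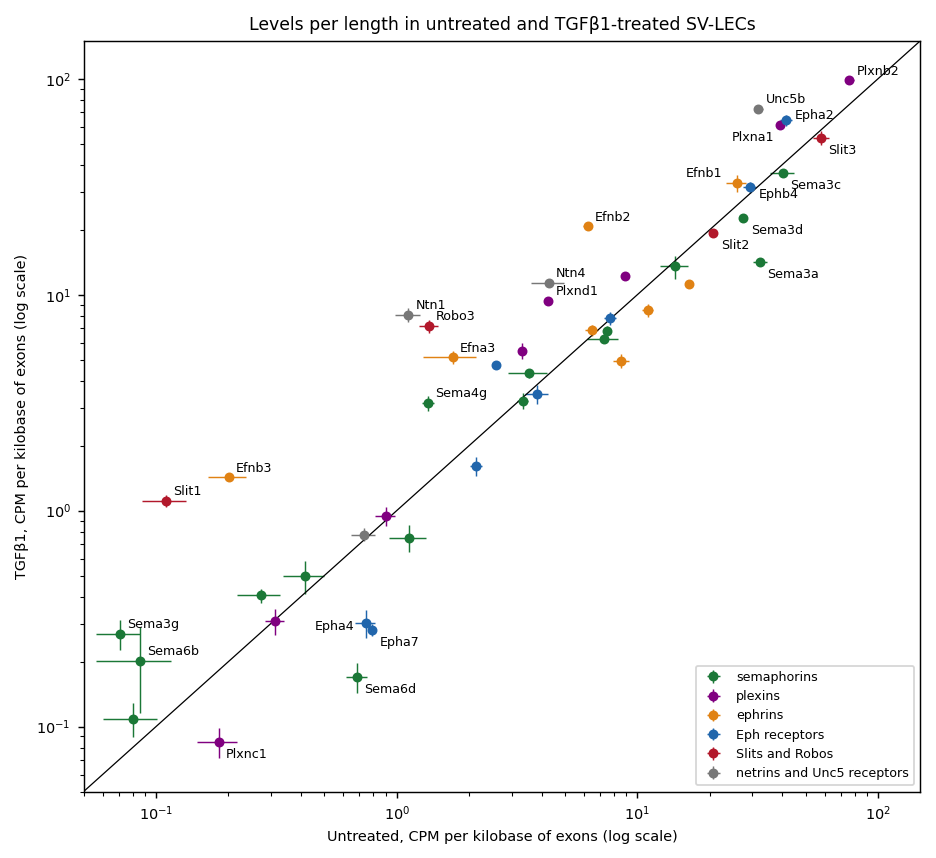
Mean level per length (CPM per kilobase of exons, log scales) of axon guidance genes above 0.05 in both groups, in untreated (x axis) and TGFβ1-treated (y axis) SV-LECs, with bars of 1 SD over 4 libraries, the line of equal levels and 1 colour per family. Plxnb2 has the highest level, 76.0 untreated and 98.7 treated, and Slit1, Efnb3, Ntn1 and Robo3 lie farthest above the line at low to middle levels.

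Co-receptors and further ligands of the same systems were taken as a list of 16 genes, chosen with earlier results of these data known. Of these, 10 were tested, 4 higher and 5 lower. The share that changed in either direction was 90%, against 75.6% of all tested genes. Nrp1, which binds class 3 semaphorins and VEGF, went from 27.4, 28.8, 31.8 and 31.3 CPM to 235, 254, 227 and 235 CPM. The groups were far apart, with a log2 fold change of 3.00 ± 0.0569 by edgeR. Nrp2, the neuropilin of lymphatic vessels, went from 66.2, 66.7, 64.5 and 68.2 CPM to 89.1, 92.4, 83.0 and 88.9 CPM, a log2 fold change of 0.41 ± 0.0480 (edgeR, FDR = 3.03e-17). Per length, Nrp1 was below Nrp2 in untreated cells, at 3.05 and 5.61 CPM per kilobase, and above it in treated cells, at 24.3 and 7.46.

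Of the netrin receptors outside the Unc5 family, Dcc had at most 1 read in any library and was not tested. Neo1, which encodes neogenin, went from 248, 255, 245 and 238 CPM to 220, 217, 201 and 212 CPM. All treated libraries were lower, with a log2 fold change of -0.22 ± 0.0428 (edgeR, FDR = 1.05e-06). The neogenin ligand Rgma fell from 17.7 to 9.19 CPM on average (log2 fold change -0.94), and Rgmb rose from 30.1 to 33.5 CPM (log2 fold change 0.16). The largest fall in the list was that of Chl1, an adhesion molecule of the L1 family that binds neuropilin-1, from 4.04 to 0.328 CPM (log2 fold change -3.59), and Flrt1, one of the FLRT ligands of Unc5 receptors, fell from 5.31 to 2.37 CPM (log2 fold change -1.15). The other FLRT genes, named after their values were seen, were more abundant and moved apart, Flrt3 falling from 62.6 to 33.5 CPM (log2 fold change -0.90) and Flrt2 averaging 60.4 and 66.0 CPM (log2 fold change 0.13, edgeR FDR = 0.0117) with overlapping groups.

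Markers of other cell types moved in the same comparison, and their part in the changes of the guidance genes was not tested. Summed over each list, untreated and treated libraries ranged from 344 to 382 and from 337 to 348 CPM for the 7 lymphatic markers, from 73.3 to 80.8 and from 166 to 173 CPM for the 6 pan-endothelial markers, and from 194 to 217 and from 130.4 to 143 CPM for the 5 fibroblast and smooth muscle markers. They ranged from 5.88 to 7.82 and from 14.9 to 16.9 CPM for the 5 leukocyte markers, nearly all of it Cd68, from 0.304 to 1.14 and from 2.36 to 4.11 CPM for the 4 epithelial markers, and from 18.8 to 21.3 and from 17.4 to 21.5 CPM for the 5 neuronal markers. The leukocyte genes Ptprc and Adgre1 had at most 1 and 0 reads, and the neuronal genes Snap25 and Rbfox3 at most 0 and 7. Of the 5 neuronal markers, 2 were tested, of which Tubb3 was higher, at 8.24 and 13.2 CPM, and Map2 lower, at 11.2 and 6.47 CPM. Of the 5 fibroblast and smooth muscle markers, 4 were tested, of which Pdgfrb, Des and Myh11 were higher and Pdgfra lower, the last at 160 and 57.8 CPM. The epithelial gene Epcam had at most 7 reads, and Krt8 and Krt18 rose to 1.11 and 1.24 CPM. Of the pan-endothelial markers, Eng, Kdr and Esam were higher. Eng, a co-receptor for TGFβ, went from 62.0 to 143 CPM and made up most of the pan-endothelial sum. Tek did not pass (log2 fold change -0.16), and Pecam1 and Cdh5 reached at most 5 and 2 counts. The lymphatic sum was mostly Pdpn, at 342 and 313 CPM.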

How the data were processed

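The data are 4 RNA libraries of untreated SV-LECs and 4 of SV-LECs given TGFβ1 (10 ng/ml, 72 h). Reads were aligned to GRCm38 by the authors, who deposited unnormalized counts for each gene. The submitters' processing notes name bcl2fastq 2.20.0.422, STAR 2.7.3a and featureCounts 1.5.1. The annotation release and the use of strand in counting are not given in the sources used here. Libraries were grouped by their labels.

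The groups were compared in edgeR 4.0.16 (R 4.3.3), the tool that the study names, through filterByExpr, TMM, glmFit and glmLRT, with Benjamini-Hochberg FDRs over 13818 genes and a threshold of 0.05. The scripts were tested on simulated data. Genes were found by symbol, and the genes and lists were chosen with earlier results of these data known. Values of all 8 libraries were given for genes with a log2 fold change of at least 1 in size, for the member of each family with the most counts per kilobase, and for Nrp1, Nrp2 and Neo1. Positions and lengths came from GENCODE M21, which matched all 65 genes. Length was the union of exons, and the longest coding transcript was an alternative added after seeing the data. Other lists were 16 co-receptors and further ligands, 41 cytoplasmic effectors, and markers of lymphatic, pan-endothelial, leukocyte, epithelial, neuronal, and fibroblast and smooth muscle cells. Mical2 was not found by symbol.

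Alternatives were the quasi-likelihood test, DESeq2 1.42.0, DESeq2 size factors, total counts, no filter, a stricter filter (1 CPM in at least 4 libraries), a stricter FDR (0.01), a prior count of 2, a replicate block and each library left out. Total counts of 18952504 to 26386941 set the precision of scarce genes, and the rest of the study's experiments were not used here.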

Additional observations from a re-analysis of the deposited data

Results flagged for a closer look

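Among the 23 genes whose libraries were given or that had the highest level in their family, 46 groups of 4 libraries were examined for a library far from the others by Dixon's ratio, and 3 had one, where chance gives about 1 in 20. Ntn4 stood at 19.7 CPM in untreated library 4, with the next highest at 15.0. Ntn1 stood at 8.25 CPM in untreated library 3, with the next highest at 6.70. Efnb3 stood at 0.811 CPM in untreated library 4, with the next highest at 0.601, on 12 to 16 reads in the untreated libraries. In all 3 genes the high untreated library remained below every treated library.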

How the results depend on the processing

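No guidance gene changed direction past the threshold under the alternatives. Of the comparisons of single genes across full alternatives, 419 kept direction and side of the threshold, 12 lost significance and 7 gained it, and with each library left out these counts were 373, 12 and 7. The numbers of higher and lower guidance genes, 23 and 14, were 22 and 14 by the quasi-likelihood test and 22 and 13 by DESeq2. Total counts as the scale shifted the median log2 fold change of all genes to -0.07, gave 21 higher and 17 lower, and moved the higher share of calls from 49.7% to 44.0% over all genes and from 62.2% to 55.3% over the guidance genes. Family counts that moved by over 1.5 times were few: Slits and Robos with 2 lower genes by total counts, with 4 higher and 2 lower without the filter, and with 0 lower at an FDR of 0.01, plexins with 2 lower without the filter, and semaphorins with 4 higher at 1 CPM. Leaving out 1 library at a time gave 1 to 2 lower plexins and 0 to 2 lower Slits and Robos, against 1 in each with all libraries. Lower plexins numbered 2 when untreated library 1 or any treated library was left out. No plexin tested with all libraries changed its call there. The added gene was thus Plxnb3, the only plexin that the filter left out with all libraries, at 9 to 17 untreated and 0 to 5 treated reads. Lower Slits and Robos numbered 0 without treated library 3, where the Slit2 call was lost (FDR = 0.0505 by edgeR). They numbered 2 without untreated library 3, untreated library 4 or treated library 1, where Slit3 passed (FDR = 0.0265, 0.0271 and 0.0147 by edgeR). With 1 library left out, the calls lost were those of Sema3b, Sema3e, Sema4c, Sema5a and Slit2, with FDRs up to 0.200 (Sema5a without untreated library 1). Those gained were of Sema3c, Sema4f, Slit3 and Ephb4, down to 0.000820 (Sema3c without untreated library 4). The replicate numbers gave no sign of pairing, since same-numbered libraries correlated at -0.271 to -0.0366 and 0 of 4 matched their own number best. With 4 libraries per group, this cannot show that the libraries were unpaired. A replicate block gave 22 higher and 15 lower, with Sema5a lost (FDR 0.0976) and Sema3c gained (0.0256). By the longest coding transcripts, the class 3 semaphorins summed to 202 and 147 CPM per kilobase and classes 4 to 7 to 20.2 and 22.1, the latter without overlap. Sema3a was then 37.4% and 22.6% of class 3. The 16 untested genes had too few reads for the filter, some of them 0 in every library, and few reads limit the precision of Sema6a, Sema6b and Sema3g. Reads of overlapping opposite-strand genes could not be separated if strand was not used in counting.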

Other observations

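Cytoplasmic proteins that act below plexins, Eph receptors, Robos and Unc5 receptors were taken as a list of 42 genes, of which 41 were found and 39 tested. Of these, 16 were higher, 12 lower and 11 did not pass (edgeR, Benjamini-Hochberg FDR under 0.05). The share that changed in either direction was 71.8%, against 75.6% of all tested genes. The median log2 fold change was 0.04, against -0.01 over all tested genes. The largest rises were those of Fes, a tyrosine kinase linked to Sema3a signalling, from 5.08 to 12.3 CPM (log2 fold change 1.27), Ptk2, which encodes focal adhesion kinase, from 118 to 243 CPM (1.04), and Vav3 from 5.00 to 9.18 CPM (0.88). The largest falls were those of Farp1, an exchange factor that binds class A plexins, from 415 to 269 CPM (-0.63), Dpysl5, a collapsin response mediator, from 8.08 to 5.36 CPM (-0.59), and Arhgap39, a Robo-linked GTPase-activating protein, from 8.11 to 5.55 CPM (-0.55). In each of these 6 genes the libraries of the groups did not overlap, which held for 27 of the 39 tested genes, 69.2%, and for 69.8% of all tested genes.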
